A study of Mus musculus with 30 samples.

Results

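The genes described here are the nuclear genes of oxidative phosphorylation, taken by symbol: every gene whose name began with Nduf followed by a, b, c, s or v, with Cox4 to Cox8, Uqcr, Atp5, or Sdha to Sdhd, without pseudogenes. The rule selected 100 of the 24761 gene symbols of the table and used no measured value. Of these, 84 encode subunits of the respiratory complexes: 37 of complex I, 4 of complex II, 8 of complex III, 18 of complex IV and 17 of complex V. The other 16 are caught by their names only: 8 assembly factors of complex I (Ndufaf), 4 assembly factors of complex II (Sdhaf), the supercomplex factor Cox7a2l and the paralogues Ndufa4l2, Ndufa11b and Ndufb4c.

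Oxidative phosphorylation takes place in the inner mitochondrial membrane. Complex I oxidizes NADH and complex II oxidizes succinate, both passing electrons to ubiquinone. Complex III hands them on to cytochrome c, complex IV reduces oxygen, and complex V, the ATP synthase, uses the proton gradient that complexes I, III and IV build. Most subunits are encoded in the nucleus and a few in mitochondrial DNA, so assembly factors and the machinery of mitochondrial gene expression are needed to put the complexes together. In macrophages, bacterial lipopolysaccharide (LPS) is known to shift metabolism from respiration towards glycolysis, and succinate oxidation at complex II is known to bear on the inflammatory response.

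RNA had been sequenced from macrophages that had been grown out of wild-type C57Bl/6 bone marrow with the growth factor M-CSF for 6 days. The vehicle cultures, named D3 to D6, UKD and r1 and r2, received DMSO for 2 h, and the cultures M2, M3 and M4 received 1 µM metaproterenol hemisulfate (MPH), an agonist of the β2 adrenergic receptor, for 2 h. LPS, labelled as 100 ng/µL, was then given for 1 h or 2 h, and the 0 h libraries had the pretreatment without LPS. Each of the 10 cultures gave 1 library at each time, 30 in all. Levels are RPKM, reads per kilobase of transcript scaled to the reads of the library, and differences are given on the scale of log2(RPKM + 0.5). The design text speaks of biological duplicates for most samples, but no label says which cultures came from different mice, so the p-values measure the spread between these cultures, which may be partly technical.

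Depth, read from the steps between low values, ran from 5.38 M to 92.2 M reads (median 41.3 M), and 7 libraries held fewer than 20 M. The 8 macrophage markers summed to between 3761 and 7226 RPKM, and each of them reached 1 RPKM in every group. The summed markers of neutrophils ran from 5.33 to 89.2 RPKM in the DMSO libraries (medians 27.2, 38.2 and 41.1 at 0, 1 and 2 h) and from 39.7 to 87.6 RPKM in the MPH libraries (medians 46.7, 58.8 and 65.6). With LPS in the DMSO cultures none of the 5 neutrophil markers tested passed the threshold, whereas with the culture as a block 4 of 5 were higher at 1 h and at 2 h, at the deposited scale and after rescaling by medians of ratios. Their part in the results below was not tested.

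The promoters of these genes were searched for short binding motifs of known regulators of the family. Nuclear respiratory factor 1 (NRF1) binds a GC-rich palindrome and is known to control many nuclear respiratory genes. RefSeq promoter sequences (build GRCm38.p6, 250 bases before the transcription start to 50 after it) were matched for 81 of the 100 genes. The NRF1 motif, GCGCA and GCGC with any base between them, was searched on both strands and found in the promoters of 21 of these 81 genes (25.9%), against 12.8% of the 8380 expressed genes with a promoter and 5.19% of all 27025 genes of that table. Its stricter, palindromic form, with T as the base between, is contained in the first count and was found in 7 of the 81 genes (8.64%), against 2.6% of expressed genes. By complex, the NRF1 motif was found in 7 of 33 genes of complex I, 2 of 3 of complex II, 1 of 5 of complex III, 1 of 13 of complex IV, 6 of 15 of complex V and 4 of 11 assembly factors. These shares are descriptions of letters in a window and not of binding sites.

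The stretches printed here are the 120 bases directly before the transcription start of the 5 genes that were lower 2 h after LPS with DMSO (results below) and hold the NRF1 motif wholly within them. They read 5′ to 3′ along the gene, and capitals mark the motif. Sdha holds it 3 times.

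Atp5c1: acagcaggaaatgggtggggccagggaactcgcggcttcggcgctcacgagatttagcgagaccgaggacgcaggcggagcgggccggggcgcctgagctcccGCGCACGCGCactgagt
Ndufa5: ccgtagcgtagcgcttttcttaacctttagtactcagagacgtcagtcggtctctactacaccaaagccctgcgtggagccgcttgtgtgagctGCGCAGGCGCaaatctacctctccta
Ndufaf4: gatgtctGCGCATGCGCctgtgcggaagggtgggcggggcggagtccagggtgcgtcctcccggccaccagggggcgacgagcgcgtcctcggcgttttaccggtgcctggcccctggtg
Sdha: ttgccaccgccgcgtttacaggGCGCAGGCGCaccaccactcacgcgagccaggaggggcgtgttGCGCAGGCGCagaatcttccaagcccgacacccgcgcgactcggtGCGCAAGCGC
Sdhd: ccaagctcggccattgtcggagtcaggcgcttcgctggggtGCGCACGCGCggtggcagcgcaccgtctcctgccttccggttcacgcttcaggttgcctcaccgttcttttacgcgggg

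In GRCm38.p6 these stretches lie at chr2:10080433-10080552 (Atp5c1, minus strand), chr6:24527691-24527810 (Ndufa5, minus strand), chr4:24897963-24898082 (Ndufaf4, plus strand), chr13:74350241-74350360 (Sdha, minus strand) and chr9:50603850-50603969 (Sdhd, minus strand). Of the other motifs searched on both strands, CCGGAAGT (ETS factors such as GABP) was found in 5 of the 81 promoters (6.17%, expressed genes 10.2%) and the YY1 motif in 6 (7.41%, expressed genes 2.8%). The estrogen-related receptor motif TCAAGGTCA was found in 2 promoters (2.47%, expressed genes 0.322%), CACGTG (E-box) in 6 (7.41%, expressed genes 12.4%) and TGACGTCA, the cyclic AMP response element, in 4 (4.94%, expressed genes 3.76%).

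Before LPS, the subunit genes were abundant. Of the 77 subunits that are not tissue isoforms, 75 were above 5 RPKM in every one of the 30 libraries. The exceptions were Ndufa11, a supernumerary subunit of complex I (4.12 to 10.0 RPKM), and Uqcrq, a small subunit of complex III (4.20 to 43.6 RPKM). The subunits of one complex were not made at one level. In complex I the means over the 7 DMSO cultures ran from 6.83 RPKM for Ndufa11 to 75.8 RPKM for Ndufb1, with a median of 35.1. In complex V they ran from 20.6 RPKM for Atp5l, a membrane subunit, to 271 RPKM for Atp5b, the catalytic β subunit, with a median of 79.4.

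The 4 genes of complex II lay close together. Sdhd, a membrane anchor, had 37.6 ± 4.24 RPKM (SD, n = 7), Sdha, the flavoprotein, 60.0 ± 7.73, Sdhc, the other anchor, 62.3 ± 3.62, and Sdhb, the iron-sulfur subunit, 69.1 ± 16.6. Sdha, Sdhc and Sdhb differed by less than the spread of Sdhb between cultures. In complex III, Uqcrh had 68.1 ± 7.37 RPKM and Uqcrc1, a core subunit, 58.6 ± 9.16 RPKM, while Uqcrq had 20.6 ± 17.3 RPKM. In complex IV, Cox4i1, a regulatory subunit, stood highest at 232 ± 35.5 RPKM and Cox7c lowest at 27.0 ± 9.65 RPKM. The 12 assembly factors lay lower than most subunits, between 1.90 RPKM (Ndufaf5) and 9.20 RPKM (Ndufaf8).

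**Figure D1:**
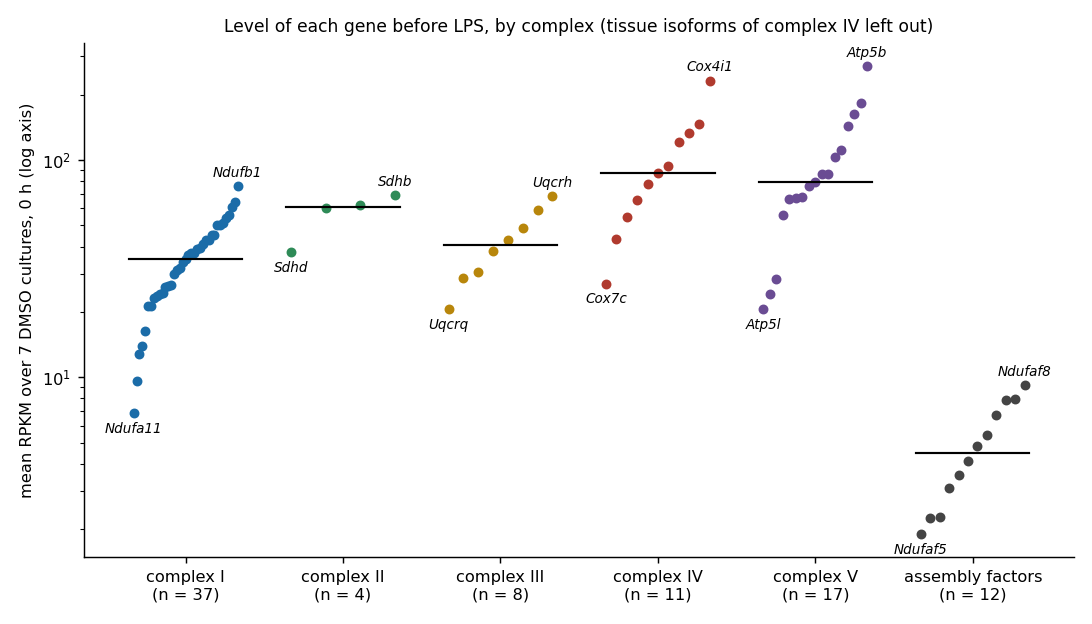
Mean RPKM of each gene over the 7 DMSO cultures at 0 h (log axis), one point per gene, by complex; black lines are medians, and the lowest and highest genes are named. The medians of complexes IV and V lie above that of complex I, and the assembly factors lie below 10 RPKM.

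Of the subunits with tissue isoforms, the ubiquitous forms were the abundant ones. Cox4i1 (232 RPKM), Cox6a1 (122 ± 55.1 RPKM), Cox6b1 (146 ± 18.7 RPKM), Cox7b (43.4 ± 3.33 RPKM) and Cox8a (77.6 ± 33.7 RPKM) were present, whereas Cox7b2, Cox8b and Cox8c stood in all 30 libraries at the lowest value the table can hold, that of 1 read. Cox4i2, the lung isoform, was at no more than 0.341 RPKM, and Cox6b2, the testis isoform, at no more than 0.962 RPKM in any library. The muscle isoform Cox7a1 was detected at 5.11 ± 1.40 RPKM beside 65.5 ± 5.73 RPKM of Cox7a2. Cox6a2, the muscle partner of Cox6a1, had 1.39 ± 1.54 RPKM, so its SD exceeded its mean. Cox7a2l had 21.8 ± 4.66 RPKM. Of the 3 genes for the c subunit of the ATP synthase rotor, which encode the same mature protein, Atp5g3 had 162 ± 37.7 RPKM, Atp5g1 28.4 ± 11.2 RPKM and Atp5g2 24.1 ± 7.02 RPKM. Atp5g1 and Atp5g2 did not differ beyond their spread. Ndufa4, now placed in complex IV, had 133 ± 19.4 RPKM, and its hypoxia-linked paralogue Ndufa4l2 stayed at or below 0.214 RPKM. Near-identical pseudogene copies exist for many of these genes, and the sources used here do not state how shared reads were assigned.

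The cultures differed from each other more than the times did. For each member tested, 92 of the 100, the variance of the 21 DMSO libraries was split into culture, time and the rest. The culture took a median of 77.8% and the time 10.7%, against 60% and 25.3% over all 10212 genes tested and 87.0% and 4.61% over 93 cytosolic ribosomal protein genes. Among the complexes, the share taken by culture was largest for complex IV (89.9% culture, 5.29% time) and smallest for complex II (56.1% culture, 34.9% time). These are shares of each gene's own variance and do not measure how far apart the cultures lay. The 4 complex II assembly factors were alone among the classes listed in having more variance by time (58.3%) than by culture (26.5%). The 8 members not tested were Cox4i2, Cox6b2, Cox7b2, Cox8b, Cox8c, Ndufa4l2, Ndufa11b and Ndufb4c, which stayed below 1 RPKM in every library.

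Several of the members that differed most between cultures had their low and high values in the same cultures. Uqcrq lay between 4.20 and 7.08 RPKM in the 12 libraries of D3, r1, r2 and M2, between 11.5 and 15.1 RPKM in the 6 libraries of D4 and M3, and between 32.6 and 43.6 RPKM in the 12 libraries of D5, D6, UKD and M4. The 3 ranges did not overlap, and each held DMSO cultures together with an MPH culture. Ndufaf8, an assembly factor of complex I, followed the same order, with 1.42 to 2.26, 5.89 to 8.19 and 10.0 to 23.2 RPKM. Cox8a ran from 30.3 to 56.7 RPKM in D3, r1, r2 and M2 and from 89.4 to 135 RPKM in D5, D6, UKD and M4. Cox5b, which carries zinc in complex IV, ran from 17.4 to 28.1 and from 64.6 to 76.1 RPKM in the same libraries, but reached 72.3 to 107 RPKM in D4 and M3, and Ndufs7, an iron-sulfur subunit next to ubiquinone, from 10.99 to 19.8 and from 34.8 to 63.2 RPKM.

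These sets of cultures were read from the values of Uqcrq and Ndufaf8, are not groups of the study and were put to no test. Cox6a2, the third widest member (2.70 on the log2 scale between DMSO cultures), did not follow them: it was lowest in D4 and highest in UKD. Other members held steady over cultures: the difference between the highest and lowest DMSO culture on the log2 scale was 2.96 for Uqcrq and 3.19 for Ndufaf8, but 0.25 for Atp5c1, the γ subunit of the ATP synthase, 0.27 for Atp5b, 0.29 for Atp5a1, the α subunit, and 0.29 for Cox7b.

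GC content of the transcript moved with the culture. Across 81 members with a GENCODE transcript sequence and at least 1 RPKM in every library, Spearman's correlation of GC content with the deviation of a library from the mean of its group was 0.406 to 0.578 in the libraries of D5, 0.332 to 0.48 in D6, 0.461 to 0.535 in UKD and 0.448 to 0.652 in M4. It was -0.69 to -0.338 in D3, -0.299 to -0.157 in r1, -0.444 to -0.303 in r2 and -0.565 to -0.297 in M2. Over 7068 genes the values were of the same sign in these cultures. In D4 and M3 the members gave -0.105 to 0.0438 and all genes -0.45 to -0.178. These are correlations across genes of one library, which are not independent, and they are given as a description. The 10 subunits that varied most between DMSO cultures had a median GC content of 57.6% and the 10 that varied least 50.2%, but Uqcrq itself had 50.2% and Cox5b 49%. The part of GC content in the culture differences was not tested.

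**Figure D2:**
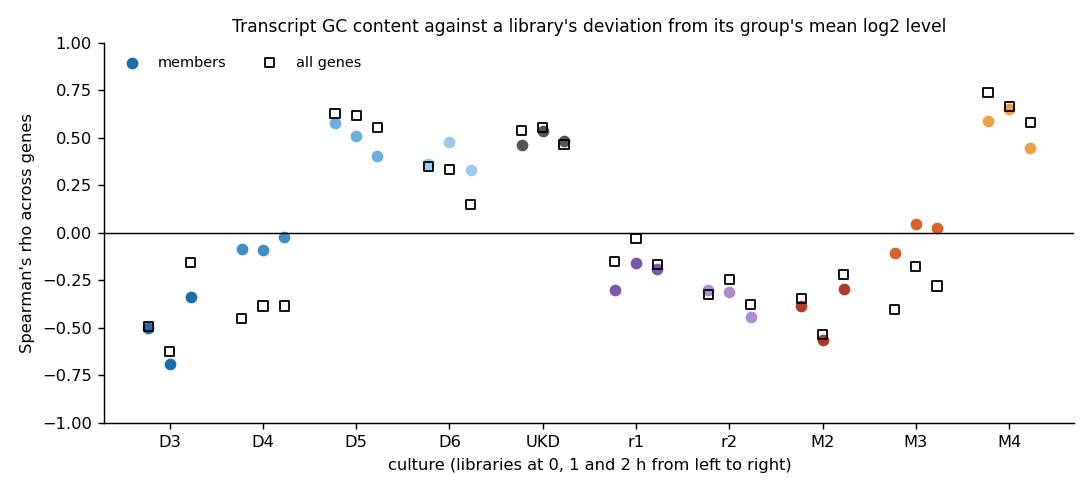
Spearman's correlation, across genes, of transcript GC content with a library's deviation from its group's mean log2 level; filled circles are the 81 members, open squares 7068 genes, 3 libraries per culture. Libraries of D5, D6, UKD and M4 lie above 0 and those of D3, r1, r2 and M2 below it.

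The first comparison asked whether these genes differed between MPH and DMSO, before LPS (0 h, MPH alone) and in its presence (1 h and 2 h). None of the 92 members tested passed the threshold at 0 h, at 1 h or at 2 h of LPS (limma, adjusted p below 0.05), where 0.869%, 0.0% and 0.869% of all 10239 genes did. Unadjusted p-values below 0.05 were found for 1, 2 and 3 members. The comparison set M2, M3 and M4 against D3 to D6 without pairing them, since no label gives a pairing. In these data, however, the deviations of D3 and M2, of D4 and M3 and of D5 and M4 from their group means correlated by 0.6981 to 0.8744 at each time. A fit with these pairs as a replicate block, chosen after seeing the data, narrowed the median half-width of the 95% interval from 0.40 to 0.20. It called 2 members higher at 0 h (Sdhb, 0.23 ± 0.06, adjusted p 0.0366, and Atp5md, 0.28 ± 0.08, adjusted p 0.0489), where 3.23% of all genes were higher and 4.19% lower. It called 0 at 1 h, with 21 at an unadjusted p below 0.05, and 3 at 2 h, where 5.15% of all genes were higher and 6.9% lower. The 3 were Atp5md (0.34 ± 0.08, adjusted p 0.0141), Ndufaf4 (-0.52 ± 0.11, adjusted p 0.0076) and Ndufaf8 (-0.31 ± 0.09, adjusted p 0.0418). This paired fit was the last of 3 choices of pairing tried for the comparison. D6 had no partner in it. The fit counted the libraries of one culture as independent, although MPH and DMSO differed only between cultures. Its intervals may therefore be too narrow and its adjusted p-values too small. The unpaired fit, planned as the main one, called 0 members at each time. It was also varied in pseudocount, filter, scaling, transcript choice, weights and cultures used. A block on the number in the culture names called 10, 7 and 11. That block joins cultures whose deviations correlated by -0.6206 to -0.3364. Its share of all genes is not given here, so these counts are not read as a result about the members. The result for MPH against DMSO therefore depends on how the cultures are paired, which the labels do not settle. The median difference of the members was -0.01, 0.09 and 0.01 on the log2 scale, beside -0.04, 0.0048 and -0.02 for all genes.

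Summed over subunits, complex II had 239 ± 9.92 RPKM (SD, n = 3) with MPH and 229 ± 2.73 RPKM (SD, n = 4) with DMSO before LPS. The summed complex I had 1338 ± 121 and 1324 ± 151 RPKM, complex III 351 ± 49.2 and 339 ± 51.8 RPKM, complex IV 1061 ± 150 and 1082 ± 189 RPKM, and complex V 1612 ± 143 and 1614 ± 164 RPKM. The libraries of complex II overlapped, with 228 to 247 RPKM under MPH and 225 to 232 under DMSO. For complexes I, III, IV and V the groups differed by less than the spread within either of them. Not passing the test does not show that the treatments acted alike: the 95% interval of the difference at 0 h stayed within 1 log2 unit of 0 for 80 of the 92 members, and its median half-width was 0.40. It was -0.17 to 0.33 for Atp5b, -0.39 to 0.48 for Cox4i1 and -2.35 to 1.86 for Uqcrq, whose cultures are so far apart.

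The members with the smallest p in the unpaired fit did not pass it. Ndufa3, a supernumerary subunit of complex I, had 56.4, 68.7 and 55.5 RPKM in M2, M3 and M4 at 0 h and 51.1, 51.4, 49.3 and 41.7 RPKM in D3 to D6. All 3 MPH values lay above the 4 DMSO values, but r1 reached 58.7 RPKM, and the difference of 0.31 ± 0.14 (SE) had an adjusted p of 0.666. Sdhaf2, which helps attach flavin to Sdha, had 8.67, 8.13 and 7.10 RPKM with MPH at 0 h and 7.38, 6.82, 6.25 and 5.40 RPKM in D3 to D6. The groups overlapped, and its difference was 0.29 ± 0.17 at 0 h, 0.42 ± 0.17 at 1 h and 0.37 ± 0.17 at 2 h (adjusted p 1.00, 1.00 and 0.539). Atp5md, a small membrane subunit of complex V, differed by 0.35 ± 0.18, 0.37 ± 0.18 and 0.41 ± 0.18 at the 3 times (adjusted p 0.846, 1.00 and 0.478). Ndufaf4 was the member with the smallest p in the other direction, with -0.42 ± 0.19 at 2 h (adjusted p 0.532).

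The next comparison asked how LPS changed the genes in the vehicle cultures. At the deposited scale 90 of 92 members had a negative difference at 1 h and 87 at 2 h, most of them small. At 1 h 12 members were lower and 0 higher (limma, adjusted p below 0.05), where 15.0% of all 10212 genes were lower and 5.24% higher. At 2 h 22 members were lower and 0 higher, where 43.6% of all genes were lower and 10.5% higher. The median difference of the members was -0.14 at 1 h and -0.16 at 2 h, and that of all genes tested -0.15 and -0.25. The 12 called at 1 h were all among the 22 called at 2 h.

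Libraries of one culture deviated together, so the fit was also made with the culture as a replicate block. With it, 56 members were lower at 1 h and 57 at 2 h, where 44.8% and 62.0% of all genes were lower. Of the 39 calls for LPS without the block, in DMSO or MPH cultures, all 39 were kept with it. Counts by complex and adjusted p-values below come from the fit without the block unless the block is named. For complexes I and V and the assembly factors, the counts with the block at the deposited scale are not given here. Cultures were left out only in the fit without the block. There the 1 h count was 4 without the 1 h libraries of D4, D6 and UKD, which are the shallowest. It was 4, 1 and 3 without UKD, r1 or r2. The share of all genes called in these reduced fits is not given here, so the drop is not read as a result about the members.

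The direction depends on the scale. In the deposited values the median gene stood 0.25 lower at 2 h, while 11 of 13 LPS response genes were higher (median of the 13, 5.81). When the RPKM were rescaled by the median of ratios between libraries, the median of all genes moved to -0.04 and that of the 79 subunits tested from -0.15 to 0.08. With this scale and the culture block, 21 subunits were higher and 0 lower at 2 h, while 7 assembly factors were lower and 0 higher (all genes 27.4% higher, 34.8% lower). Without the block 2 subunits were higher and 4 assembly factors lower (all genes 16.6% and 21.3%). At 1 h the rescaled median of the subunits was 0.005, and 1 subunit (Ndufb3, -0.19) and 4 assembly factors were lower with the block (all genes 14.8%). Quantile normalization gave another order: the subunits' median at 2 h was -0.19, that of the assembly factors -0.15 and that of all genes -0.11. Whether the amount of mRNA per cell changed cannot be read from these values.

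**Figure D3:**
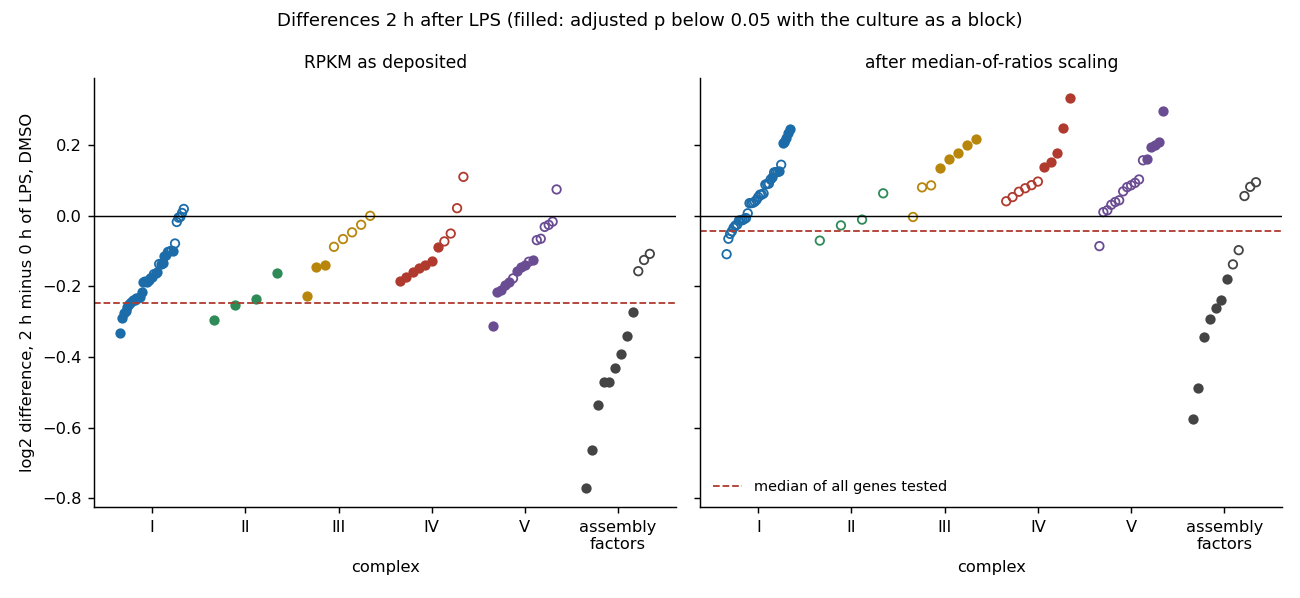
Log2 difference between 2 h and 0 h of LPS with DMSO for each subunit and assembly factor, by complex (Cox7a2l and tissue isoforms not shown); left, RPKM as deposited, right, after median-of-ratios scaling; filled points have an adjusted p below 0.05 with the culture as a block, dashed lines are the median of all genes tested. Subunits lie mostly above the dashed line at either scale and most assembly factors below it.

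Without the culture block complex I, which oxidizes NADH, had 3 of 37 subunits lower at 1 h and 7 at 2 h. There 15.0% and 43.6% of all genes were lower. Its medians were -0.16 and -0.17, and the rescaled median was 0.05 at 2 h. Ndufv2, an iron-sulfur subunit of the NADH-oxidizing module, had 22.2 to 30.6 RPKM (median 24.96) at 0 h, 17.2 to 27.5 (median 21.9) at 1 h and 18.1 to 23.2 (median 21.3) at 2 h in the 7 DMSO cultures. The groups overlapped, yet every culture was lower at 2 h than at 0 h, and the difference of -0.29 ± 0.07 (SE) passed the test (adjusted p 0.00175). Ndufb9 (-0.24 ± 0.07), Ndufa5 (-0.28 ± 0.10), Ndufb3 (-0.25 ± 0.09), Ndufv1, which binds FMN (-0.19 ± 0.07), and Ndufv3 (-0.23 ± 0.09) were among the others that passed at 2 h. After rescaling, Ndufv1 turned to 0.04.

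Complex II, which is succinate dehydrogenase, was the complex with the largest share of calls. Of its 4 subunits 1 was lower at 1 h and 3 at 2 h, where 15.0% and 43.6% of all genes were lower. All 4 were lower with the culture block, where 44.8% of all genes were lower at 1 h and 62.0% at 2 h. Sdhc had 58.5 to 69.2 RPKM (median 61.8) at 0 h and 45.3 to 61.9 (median 54.3) at 2 h, a difference of -0.25 ± 0.06 (adjusted p 0.00231). Sdhd had 33.1 to 46.2 RPKM (median 37.3) at 0 h and 25.7 to 34.4 (median 30.4) at 2 h, a difference of -0.30 ± 0.08 (adjusted p 0.0047). For both genes the highest 2 h library overlapped the lowest at 0 h. Sdha differed by -0.24 ± 0.08 (adjusted p 0.0133), and Sdhb by -0.16, which did not pass without the block. In each of the 7 DMSO cultures all 4 genes were lower at both times than at 0 h.

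The sum of complex II over its 4 subunits ran from 222 to 243 RPKM at 0 h, from 196 to 210 at 1 h and from 183 to 208 at 2 h, so the libraries before LPS did not overlap with those after it. The median of the 4 differences, -0.245, was close to the -0.248 of all genes at 2 h. After rescaling it was -0.02, with 0 of 4 past the threshold with or without the block.

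Complexes III and IV, which carry electrons from ubiquinone to oxygen, had no member past the threshold. The counts were 0 of 8 and 0 of 13 at either time, where 15.0% and 43.6% of all genes were lower. At 2 h an unadjusted p below 0.05 was found for 1 subunit of complex III and 0 of complex IV. With the culture block 3 and 7 were lower at 2 h, where 62.0% of all genes were. Their medians at 2 h were -0.08 and -0.13, and after rescaling 0.15 and 0.10. Cox4i1 had 232 ± 35.5 RPKM at 0 h and 224 ± 31.5 RPKM at 2 h (SD, n = 7). Cox7c, the least abundant ubiquitous subunit of complex IV, was the one member higher at 2 h than at 1 h with the culture block at the deposited scale (0.31 ± 0.10, adjusted p 0.0164; adjusted p 0.148 without it), whereas after rescaling 13 subunits were, 4 of them in complex IV.

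Complex V had 3 of 17 subunits lower at each time without the culture block. In that fit 15.0% of all genes were lower at 1 h and 43.6% at 2 h. The 3 subunits were the same at both times: Atp5c1, Atp5j and Atp5o. Atp5c1, the central γ shaft, had 80.9 to 94.3 RPKM (median 82.7) at 0 h, 66.9 to 80.7 (median 70.9) at 1 h and 63.7 to 78.1 (median 66.4) at 2 h. No library after LPS reached the lowest library before it. The difference was -0.23 ± 0.06 at 1 h and -0.31 ± 0.06 at 2 h (adjusted p 0.0114 and 0.000239), and after rescaling -0.09 at 2 h, which did not pass (adjusted p 0.249). Atp5j and Atp5o, both in the peripheral stalk, differed by -0.21 ± 0.07 and -0.16 ± 0.06 at 2 h, and after rescaling by 0.02 and 0.07. The F1 subunits Atp5a1 and Atp5b had 183 ± 13.1 and 271 ± 20.98 RPKM at 0 h and 180 ± 15.0 and 265 ± 21.8 RPKM at 2 h. At the deposited scale they did not pass the test, and after rescaling with the culture block they stood higher at 2 h by 0.20 each (adjusted p 0.000441 and 0.000226). Whether Atp5c1 differs from them in its response was not tested.

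**Figure D4:**
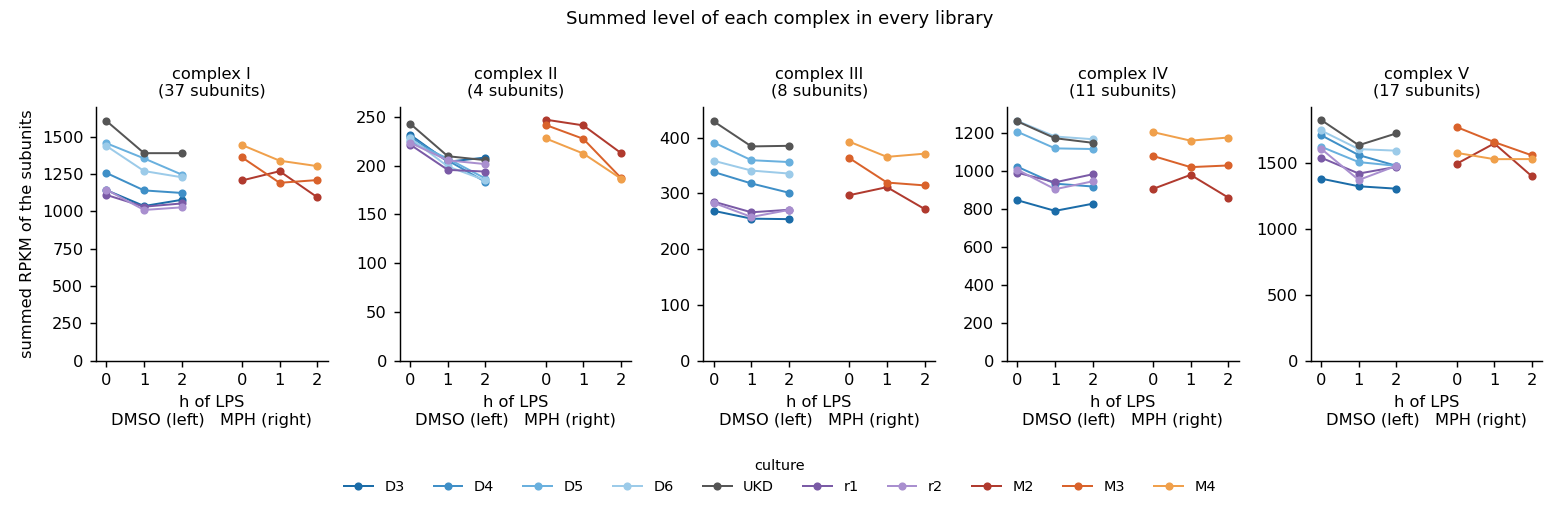
Summed RPKM of the subunits of each complex in every library (tissue isoforms of complex IV left out); lines join the 3 libraries of a culture, with DMSO cultures left and MPH cultures right in each panel. Sums were lower after LPS in each of the 7 DMSO cultures, and M2 stood higher at 1 h for complexes I, III, IV and V.

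Summed levels at the deposited scale were lower after LPS in 7 of 7 DMSO cultures for every complex and at both times. Ratios to 0 h ran from 0.853 to 0.958 at 1 h and from 0.798 to 0.992 at 2 h. The smallest shift was that of complex IV in r1 at 2 h (0.992) and the largest that of complex II in D4 at 2 h (0.798). Single genes were less uniform: 28 of 92 members were lower in all 7 cultures at 1 h and 46 at 2 h, beside 35.99% and 51.5% of all genes. No member was higher in all 7 cultures at either time.

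The assembly factors stood further below their starting level than the subunits did. Of the 12 that the name rule catches, 5 were lower at 1 h and 9 at 2 h at the deposited scale without the culture block. Of all genes 15.0% and 43.6% were lower. The median of the 12 at 2 h was -0.41, against -0.15 for the subunits. After rescaling it was -0.21, and 4 (Sdhaf1, Sdhaf2, Sdhaf3 and Ndufaf6) were lower without the culture block (all genes 21.3%). A single scaling factor per library leaves the gap between assembly factors and subunits nearly as it is, whereas quantile normalization turned it around (medians above). In each of the 7 DMSO cultures the median difference of the 12 factors lay below that of the 79 subunits, by 0.03 to 0.32 at 1 h and by 0.12 to 0.36 at 2 h on the log2 scale. Across members the 2 h difference also moved with transcript GC content (Spearman's correlation 0.466 over 84 members) and with the level before LPS (0.32 over 92), and within the subunits the values were 0.35 for GC content (71 subunits) and 0.116 for the level (79). The part of GC content or level in the gap was not tested.

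All 4 factors of complex II were lower at 2 h (all genes 43.6%). Sdhaf1, which helps insert iron-sulfur clusters into Sdhb, had 2.52 to 6.62 RPKM (median 3.97) at 0 h, 1.60 to 4.38 (median 2.69) at 1 h and 1.51 to 2.98 (median 2.12) at 2 h. Every DMSO culture was lower at 1 h than at 0 h and lower again at 2 h, although the groups overlapped. The differences were -0.47 ± 0.13 and -0.77 ± 0.13 (adjusted p 0.0132 and 5.64e-05). Sdhaf3, which acts with Sdhaf1, had 1.90 to 2.82 RPKM (median 2.05) at 0 h, 1.52 to 2.44 (median 2.06) at 1 h and 1.01 to 1.79 (median 1.19) at 2 h. Its 1 h libraries overlapped those at 0 h, and its 2 h libraries lay below all of those at 0 h. It differed by -0.66 ± 0.10 between 0 h and 2 h and by -0.54 ± 0.10 between 1 h and 2 h (adjusted p 2.72e-05 and 0.000841), and it was the one member lower at 2 h than at 1 h, where 15.4% of all genes were lower. With the culture block 4 members were lower and 1 higher between these times (35.4% and 13.8% of all genes). After rescaling as well, 2 assembly factors were lower and 13 subunits higher (24.8% and 21.2% of all genes).

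Sdhaf2 had 5.40 to 7.40 RPKM (median 6.82) at 0 h, 3.96 to 6.38 (median 5.02) at 1 h and 4.00 to 5.36 (median 4.79) at 2 h. Each culture was lower after LPS, and all 2 h libraries lay below the lowest at 0 h; the difference at 2 h was -0.47 ± 0.09 (adjusted p 0.000389). Sdhaf4, which binds Sdha on its way into the complex, had 6.38 to 9.10 RPKM (median 8.19) at 0 h and 4.88 to 6.60 (median 6.05) at 2 h, a difference of -0.39 ± 0.08 (adjusted p 0.000509).

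Of the 8 factors of complex I, 3 were lower at 1 h and 5 at 2 h (all genes 15.0% and 43.6%). Ndufaf4 had 1.49 to 2.86 RPKM (median 2.16) at 0 h, 1.08 to 2.35 (median 1.47) at 1 h and 1.01 to 2.25 (median 1.37) at 2 h, a difference of -0.47 ± 0.13 at 2 h (adjusted p 0.00453). The groups overlapped, but each culture was lower after LPS than before it. Ndufaf1 (-0.54 ± 0.15), Ndufaf6 (-0.43 ± 0.09), Ndufaf7 (-0.34 ± 0.10) and Ndufaf5 (-0.27 ± 0.09) passed at 2 h, whereas Ndufaf2, Ndufaf3 and Ndufaf8 did not. These genes are low, so the added 0.5 RPKM makes their differences smaller than the ratio of their levels.

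**Figure D5:**
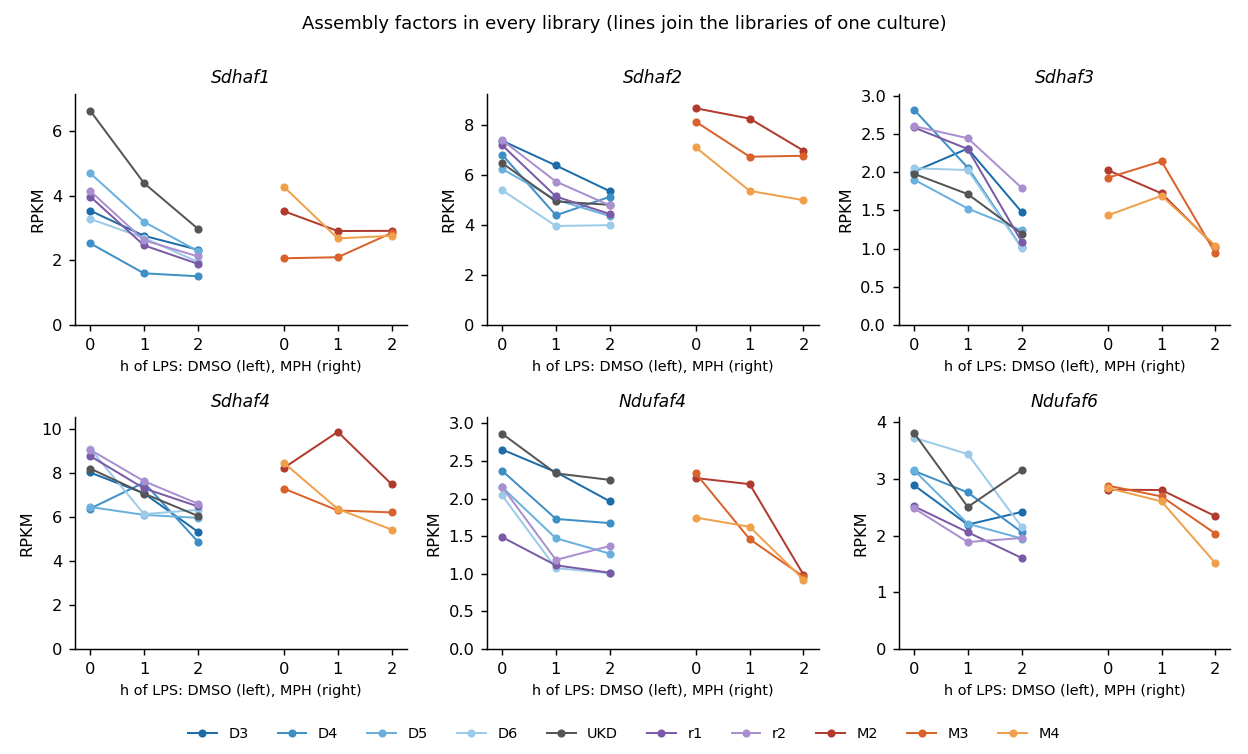
RPKM of the 4 complex II assembly factors and of Ndufaf4 and Ndufaf6 in every library; lines join the 3 libraries of a culture, DMSO left, MPH right. Sdhaf1 is lower at each later time in all 7 DMSO cultures, and Ndufaf4 is at or below 0.988 RPKM at 2 h in all 3 MPH cultures.

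The response to LPS was also measured under MPH. At 1 h 0 of 92 members passed (3.08% of 10239 genes did), with 0 at an unadjusted p below 0.05, and with the culture block 1 was lower (Uqcr10, -0.36 ± 0.10, adjusted p 0.0277), where 7.41% of all genes were lower. At 2 h 4 members were lower and 0 higher, where 14.7% of genes were lower and 5.97% higher: Ndufaf4 (-0.84 ± 0.21, adjusted p 0.00827), Sdhaf3 (-0.60 ± 0.17, adjusted p 0.0152), Sdhc (-0.33 ± 0.10, adjusted p 0.03) and Ndufaf6 (-0.46 ± 0.15, adjusted p 0.0437). With the culture block 20 were lower (42.8% of all genes). The 4 calls rest on few cultures: 2 were left without D5 or without M4 and 0 without M2 or without M3. Without D5 11.4% of all genes were lower. The shares without M2, M3 or M4 are not given here. The median of the members, -0.15, turned to 0.05 after rescaling, where with the culture block 4 subunits were higher and 3 assembly factors lower (all genes 18.1% higher, 21.9% lower).

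Ndufaf4 stood at 2.27, 2.33 and 1.75 RPKM in M2, M3 and M4 at 0 h and at 0.988, 0.962 and 0.923 RPKM at 2 h, and all 3 values at 2 h lay below every DMSO library at that time, the lowest of which was 1.01 RPKM. Sdhaf3 stood at 2.02, 1.92 and 1.43 RPKM at 0 h and at 1.02, 0.940 and 1.038 RPKM at 2 h. Sdhc stood at 62.5, 59.7 and 57.2 RPKM at 0 h and at 50.4, 44.4 and 47.2 RPKM at 2 h, which did not overlap. Sdhaf1, lower at 2 h in all 7 DMSO cultures, had 3.52, 2.06 and 4.27 RPKM at 0 h and 2.91, 2.84 and 2.76 RPKM at 2 h: it was higher at 2 h in M3 and lower in M2 and M4. The culture M2 also stood apart at 1 h, where its summed complex I was 1.05 times and its summed complex V 1.104 times the 0 h level.

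A last comparison asked whether the LPS response differed between MPH and DMSO. None of the 92 members passed at 1 h or at 2 h, with or without the culture block (limma; all genes 0.0% and 0.107% without it, 0.195% and 1.43% with it), and 0 and 0 members had an unadjusted p below 0.05 without the block. The smallest p at 2 h was that of Sdhaf1, with a difference of 0.52 and a 95% interval of -0.15 to 1.19 (adjusted p 1.00, and 0.238 with the block). Without the block the median half-width of the 95% interval was 0.57, so in that fit a difference of that size in a single gene could not be told from 0. The interval with the block, which takes out differences between cultures, is not given here.

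Around the complexes, other genes of mitochondrial energy metabolism were measured in the same fit of the vehicle cultures. A wider list of assembly factors, 50 tested and including the 12 above, had 34 lower and 0 higher at 2 h, with a median of -0.43 (all genes 43.6% lower, median -0.25). After rescaling 19 were lower and 1 higher (all genes 21.3% and 16.6%), with a median of -0.23. Tmem126b, a complex I factor, differed by -1.18 ± 0.10, Taco1, which promotes translation of a mitochondrially encoded complex IV subunit, by -1.02 ± 0.12, Uqcc3, a complex III factor, by -0.80 ± 0.10, and Tmem186, another complex I factor, by -0.95 ± 0.13.

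Genes that control respiratory gene expression went both ways, with 7 of 18 lower and 4 higher at 2 h, where 43.6% of all genes were lower and 10.5% higher. After rescaling 3 were lower and 5 higher (all genes 21.3% and 16.6%). Among the lower genes, Tfam, which packages mitochondrial DNA, differed by -0.69 ± 0.11, Tfb1m by -0.72 ± 0.14 and Twnk, the mitochondrial helicase, by -0.66 ± 0.13, and these 3 stayed past the threshold after rescaling (-0.49, -0.54 and -0.50). The transcription factor genes Nfe2l2 (1.29 ± 0.17), Hif1a (0.87 ± 0.14) and Gabpb1 (0.58 ± 0.09) were higher. At the deposited scale, of 78 mitochondrial ribosomal protein genes 38 were lower and 1 higher (median -0.26, and -0.05 with 7 lower after rescaling), while of 93 cytosolic ribosomal protein genes 5 were lower and 3 higher (median -0.06).

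Of 21 genes around the tricarboxylic acid cycle, 5 were lower and 1 higher at 2 h, where 43.6% of all genes were lower and 10.5% higher. Among the lower was Fh1, fumarase (-0.35 ± 0.06, and -0.13 with an adjusted p of 0.144 after rescaling). The higher one was Dld, a subunit shared by several dehydrogenases (0.33 ± 0.11). After rescaling 0 were lower and 2 higher (all genes 21.3% and 16.6%). AA467197, a paralogue of Ndufa4, had 0.951 to 9.03 RPKM at 0 h, 2.01 to 15.0 RPKM at 1 h and 10.3 to 35.2 RPKM at 2 h in the DMSO cultures, and the 0 h and 2 h libraries did not overlap. It was 2.23 ± 0.25 higher at 2 h (adjusted p 6.53e-07), and 2.44 after rescaling, while Ndufa4 itself had 133 ± 19.4 and 121 ± 15.3 RPKM at 0 h and 2 h. Genes of mitochondrial DNA were not analysed here.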

How the data were processed

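Levels were taken from 1 deposited table of RPKM values per RefSeq transcript, made by the authors. The submitters' processing notes name FastQC, cutadapt, HISAT2, SAMtools and the build mm9, with no versions. No source used here states the counting program, the use of strand or the treatment of reads with several matches. For each gene the transcript line with the highest mean was used. No value equals 0: where no read was counted, the table gives what 1 read is worth. Library depth came from the step size among low values of 1454 olfactory and vomeronasal receptor lines. No value column was left unmapped to a sample.

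Differences were tested with limma 3.58.1 (R 4.3.3, trend option) on log2(RPKM + 0.5), keeping genes that reached 1 RPKM in 3 or more libraries, with Benjamini-Hochberg adjustment over all genes and a threshold of 0.05. MPH comparisons used 21 libraries, those of cultures M2 to M4 and of D3 to D6. LPS responses with DMSO used the 21 DMSO libraries, with the series of culture names as covariate. The procedure was tested on simulated data drawn independently for each library. These held no difference between cultures, so they cannot show how the fit behaves where libraries of one culture deviate together. Libraries of one culture deviated together over 7842 genes (30 pairs, correlations 0.649 to 0.9323), and the label of a library names its culture, so the culture was used as a replicate block in a further fit.

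Genes named are those past the threshold (up to 12 per direction, otherwise the 5 with the smallest p), the most and least abundant subunits, the isoform groups, complex II and up to 4 genes of each other list. Further genes were chosen after their values were seen. The result of 1 member is not reported here, though the counts include it. The members and lists were chosen with earlier results of these data known. Alternatives covered pseudocount, filter, scaling, transcript choice, weights, covariate, block and removal of cultures. Median-of-ratios scaling together with the culture block was added after seeing the data. So was a block pairing D3 to D5 with M2 to M4, the last of 3 choices of pairing for MPH against DMSO. "Rescaled" means median-of-ratios scaling of the RPKM. GC content came from GENCODE transcripts (GRCm38), promoters from RefSeq. Python 3.11.15 was used for the remaining steps.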

Additional observations from a re-analysis of the deposited data

Results flagged for a closer look

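One value stood apart from its group. Sdhd, a membrane anchor of complex II, had 46.2 RPKM in the DMSO library of culture D4 at 0 h, and the nearest of the other 6 cultures had 37.8 RPKM. The gap was 0.643 of the whole range of the 7 libraries, above Dixon's critical value of 0.568. Of 81 groups examined this was the only 1 above it. The groups were the summed complexes and the 22 members called for LPS with DMSO, at each time in the DMSO cultures. Chance puts about 1 in 20 independent groups there. The groups examined overlap and include members picked by their results, so that rate may not apply to them. The cause of the high Sdhd value was not tested.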

How the results depend on the processing

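Both the counts of members past the threshold and, with median-of-ratios scaling, the sign of most differences moved with the processing: at 2 h with DMSO 5 were positive and 87 negative as deposited, 65 and 27 rescaled. With DMSO the counts at 1 h against 0 h (12), 2 h against 0 h (22) and 2 h against 1 h (1) became 56, 57 and 5 with the culture as a replicate block, 39, 42 and 2 with array weights, and 0, 4 and 0 with D3 to D6 only. Without the covariate the first 2 were 2 and 13, and with median-of-ratios scaling 0 and 6. The 1 h count was 7 without the filter and 4 without the 1 h libraries of D4, D6 and UKD. Under MPH the 2 h count of 4 became 1 without the filter, 1 with median-of-ratios scaling and 1 with quantile normalization. Of all genes 4.3%, 6.3% and 6.2% were lower in these fits and 2.4%, 7.7% and 6.8% higher. With the block the 2 h count became 20, and the 1 h count of 0 became 1. Median-of-ratios scaling with the replicate block, added after seeing the data, gave 5, 28 and 15 with DMSO and 7 at 2 h under MPH, and at 2 h most of these were higher. Leaving out 1 culture at a time gave 1 to 14, 16 to 28 and 1 to 2 with DMSO and 0 to 4 under MPH at 2 h. For DMSO, the share of all genes is not given here for array weights, D3 to D6 only, no covariate, no filter or removed libraries. Those counts are not read as a result about the members. Of the calls, 1 of 12, 15 of 22 and 0 of 4 (MPH) held in every removal. At 2 h with DMSO, Atp5j (0.015), Atp5o (0.069) and Ndufv1 (0.037) turned positive with median-of-ratios scaling, with and without the block, and Ndufaf5 (0.052) with quantile normalization. Of 39 calls, 39 were kept with pseudocounts of 0.1 or 1, with the mean over transcript lines, with array weights and with the culture block, 25 without the filter, 20 with quantile normalization and 6 with median-of-ratios scaling. The numbers in the names of DMSO and MPH cultures do not pair them (6 pairs, correlations -0.6206 to -0.3364). A replicate block on that number gave 10, 7 and 11 members for MPH against DMSO at 0, 1 and 2 h, where the fit without it gave 0. The share of all genes under that block is not given here, so these counts are not read as a result about the members. A replicate block on the pairs D3 with M2, D4 with M3 and D5 with M4 gave 2, 0 and 3. This pairing was read from these data and added after seeing them, as the last of 3 choices of pairing for this comparison. Its fit counted the libraries of one culture as independent. The causes were not tested. Low depth limits what can be said of the 8 members below 1 RPKM.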
